A study of Arabidopsis thaliana with 8 samples.

Results

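AtGBPL3, a guanylate-binding GTPase of large size, was found by chromatin immunoprecipitation and sequencing (ChIP-seq) mostly close to the centromeres and at ribosomal RNA genes, and in a few places along the chromosome arms. The 6 genes described here are those arm genes: AT1G04680, AT3G23460, AT2G16586, AT3G27510, AT5G50820 (NAC097) and AT5G10340. They were chosen by their called GBPL3 peaks. A peak of both replicates touched each gene, or came within 1 kb of it. These peaks lay more than 3 Mb from a centromere midpoint and more than 10 kb from a nuclear rRNA gene. The guanylate-binding genes were left aside. Where a peak reached several genes, the gene that held the summit or was named beforehand was taken, and the others are given as neighbours. The chosen genes are 6 of the 37899 nuclear genes of the gene table, and their 6 regions are 6 of the 64 regions called in both GBPL3 replicates. Of the other 58 regions, 46 were pericentromeric, 11 lay near rRNA genes and 1 lay at AT5G46070, a guanylate-binding gene.

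Whole Arabidopsis thaliana seedlings were harvested 7 days after germination in long days. GBPL3 was pulled down through a GFP tag from a single complementing line (comp2), in which the genomic AtGBPL3-GFP fusion runs from the AtGBPL3 promoter in the gbpl3-5 mutant. The comparison line was Col-0 carrying AtH2B-GFP, a core histone, under the 35S promoter of cauliflower mosaic virus, so that the tagged protein, its promoter and the plant's genotype changed together and cannot be told apart. Both fusions were pulled down with GFP-Trap agarose, 2 replicates each, and each of these 4 samples has a peak list; the inputs were not analysed here. Nothing in the labels says that the replicates came from separate plantings, so differences between them may be technical.

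As background, large GTPases of this family are membrane- and scaffold-associated proteins, and in plants chromatin held at the nuclear periphery tends to be rich in silent repeats. NAC097 belongs to the NAC proteins, a large plant family of transcription factors with a shared DNA-binding domain, whose members act in development, ageing and stress. The gene table names no product for the other 5 genes, all protein-coding, and no role is given to them here.

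The GBPL3 lists held 87 and 81 nuclear peaks, with a median fold enrichment of 5.71 and 4.21. Fold enrichment is the authors' linear ratio of the signal at a summit over its local background, and it belongs to 1 list at a time. The H2B lists held 1361 and 8608 peaks. Sequencing depth is unknown for all 4 lists. Since a called GBPL3 peak put each of these genes in the set, the folds, ranks and positions below are a description, with no test. A GBPL3 region of both replicates lay within 1 kb of 0.0398% of the 30131 arm genes (12 genes, of which 2 are AT5G46070 and its neighbour AT5G46060).

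AT1G04680 carried the strongest arm region of the 6. On chromosome 1 it ran from 1307720 to 1309068 (TAIR10, counted from 1, as are all positions here), 1349 bp wide. The fold was 9.12 in replicate 1, rank 13 of 87, and 14.4 in replicate 2, rank 3 of 81, a mean of 11.74 ± 3.70 (SD, n = 2). It was the widest of the 6, and the only one with several summits in a list. Replicate 1 had summits at 1308032, 1308544 and 1308780 with folds of 6.35, 6.60 and 9.12. Replicate 2 had summits at 1308020 and 1308668 with folds of 14.4 and 12.9. The leftmost summits of the lists lay close together, while the strongest summit was the rightmost in replicate 1 and the leftmost in replicate 2, a shift of 760 bp that ranks 2 of 64 regions.

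AT3G23460 had a narrow region inside the gene, on chromosome 3 from 8413943 to 8414294. Its fold was 10.1 in replicate 1, rank 9 of 87, and 4.32 in replicate 2, rank 39 of 81, a mean of 7.23 ± 4.12 (SD, n = 2). In replicate 1 it stood above the other 5 genes, and in replicate 2 below AT1G04680 and AT3G27510. The summits of the lists lay 37 bp apart, at 8414114 and 8414077.

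AT2G16586 was covered by its region over a larger part of its length than the other 5 genes, 32.5% of 1135 bp. The region ran on chromosome 2 from 7190916 to 7191305, with a fold of 6.50 in replicate 1 (rank 38 of 87) and 4.05 in replicate 2 (rank 45 of 81), a mean of 5.28 ± 1.73 (SD, n = 2). Its summits at 7191073 and 7191089 were 16 bp apart.

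AT3G27510 was crossed at its edge by a region on chromosome 3 from 10187981 to 10188340. Its folds were 5.94 (rank 42 of 87) and 4.43 (rank 35 of 81) in replicates 1 and 2, a mean of 5.19 ± 1.06 (SD, n = 2). The summits, at 10188172 and 10188191, were 19 bp apart and just inside the gene.

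NAC097 (AT5G50820) held a short region on chromosome 5 from 20679965 to 20680216. Its folds were 5.61 (rank 45 of 87) and 3.77 (rank 51 of 81), a mean of 4.69 ± 1.30 (SD, n = 2). The replicate 1 peak, 184 bp wide, was the narrowest of its list. Its summit at 20680157 lay near the right border of that peak, 32 bp from the replicate 2 summit at 20680125.

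AT5G10340 had the lowest fold of the 6 in both lists. The region on chromosome 5 from 3253098 to 3253320 had a fold of 4.64 in replicate 1 (rank 56 of 87) and 2.62 in replicate 2 (rank 76 of 81), a mean of 3.63 ± 1.42 (SD, n = 2). Its summits agreed most closely, at 3253206 and 3253209, 3 bp apart.

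Between replicates the 6 genes did not move alike. The fold was higher in replicate 1 at 5 of them and higher in replicate 2 at AT1G04680, where the ratio of replicate 2 over replicate 1 was 1.57. Over all 64 regions the median ratio was 0.662, and 2 regions had a ratio above 1, AT1G04680 and the region at AT5G46070 (7.13 in replicate 1, 43.8 in replicate 2). AT3G23460 stood at the other end: its ratio of 0.425 was the lowest of the 64. AT5G10340 (0.566) ranked 62 of 64 and AT2G16586 (0.624) ranked 53, while NAC097 (0.672) and AT3G27510 (0.747) lay near or above the median. The ratio spanned 0.556 to 0.965 over the 46 pericentromeric regions and 0.587 to 0.822 over the 11 near rRNA genes, so AT1G04680 and AT3G23460 lay outside both spans. Divided by the median fold of its own list, the ratio was 2.13 at AT1G04680 and 0.576 at AT3G23460, and at AT3G27510 it turned from below to above 1 (1.01); 15 of the 64 regions were then above 1.

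**Figure D1:**
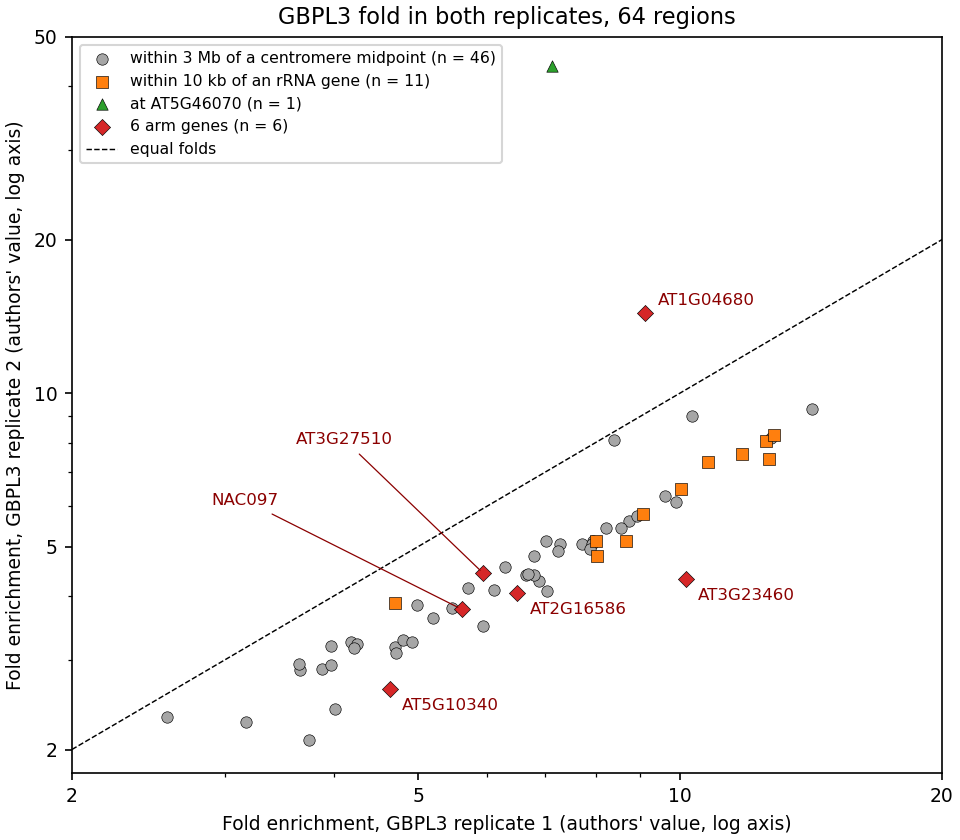
Fold enrichment of each region called in both GBPL3 replicates (authors' values, log axes, 1 point a region), replicate 1 across and replicate 2 up, coloured by where the region lies; the dashed line marks equal folds. AT1G04680 (9.12 and 14.4) lies above the line with the region at AT5G46070, AT3G23460 (10.1 and 4.32) lies farthest below it, and the other 4 arm genes lie within or near the cloud of pericentromeric regions.

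The distance between the summits of the replicates varied among the genes too. Between replicates the strongest summits lay a median of 25.5 bp apart at the 6 arm regions and 4 bp apart over the 46 pericentromeric regions. AT1G04680, AT3G23460 and NAC097 ranked 2, 5 and 6 of 64 in this distance, and AT5G10340 ranked 38.

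All 6 peaks sat at or near an end of the gene. The gene table used has no strand, so which end starts transcription was not determined here, and ends are named by coordinate. The peak lay at the higher-coordinate end of AT1G04680, AT3G23460 and NAC097 and at the lower-coordinate end of AT2G16586, AT3G27510 and AT5G10340. At AT1G04680 the strongest summits lay outside the gene, 807 bp beyond its end in replicate 1 and 47 bp beyond it in replicate 2, and 18.8% of the region was inside the gene. In the other 5 genes the summits of both replicates were inside, which the choice of the gene holding the summit partly fixed. They were 262 and 299 bp from the end of AT3G23460, 136 and 152 bp from that of AT2G16586, and 117 and 149 bp from that of NAC097 in replicates 1 and 2. They were 38 and 57 bp from the end of AT3G27510 and 84 and 87 bp from that of AT5G10340. All of the region lay in the gene at AT3G23460 and NAC097, 94.6% at AT2G16586, 89.2% at AT5G10340 and 57.5% at AT3G27510. Among arm H2B summits in or within 1 kb of a protein-coding gene, which did not enter the choice of the genes, 11.9% of 1182 in replicate 1 and 12.6% of 7819 in replicate 2 lay 299 bp or less from a gene end, with medians of 693 and 636 bp. The limit of 299 bp is the largest distance among the 5 genes with summits inside, so that all 5 meet it by construction and AT1G04680 in replicate 1 does not; the shares are given for scale and show no difference.

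**Figure D2:**
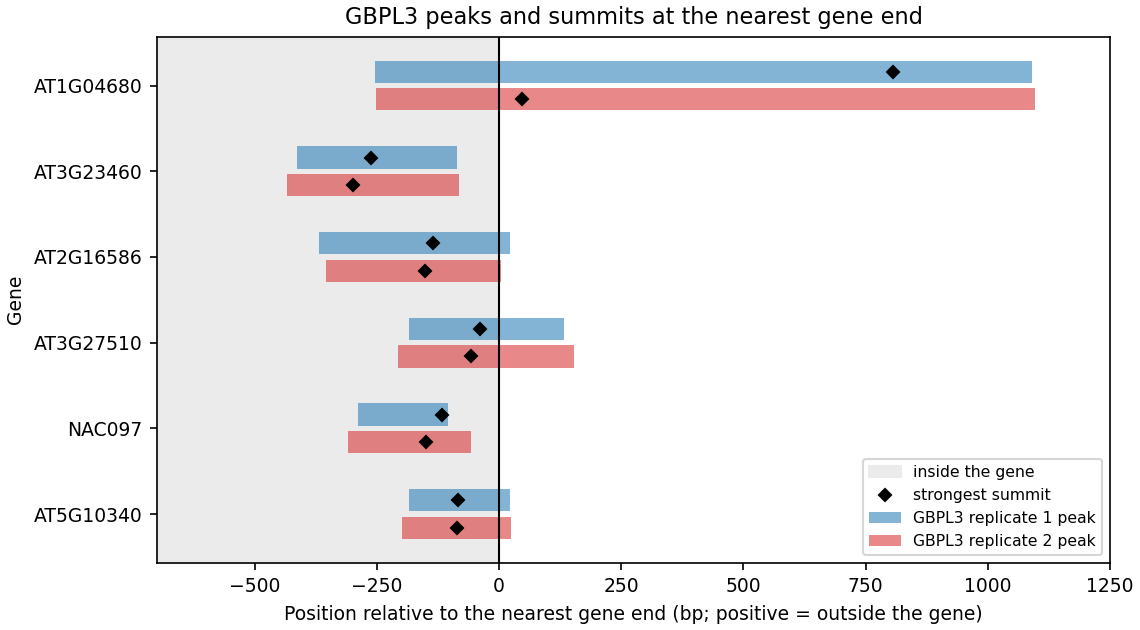
Extent of the GBPL3 peak in replicate 1 (blue) and replicate 2 (red) at each of the 6 arm genes, placed in bp from the nearest gene end, with the gene to the left of 0 (grey) and the strongest summit as a diamond. In 5 genes both summits lie inside, 299 bp or less from the end; at AT1G04680 they lie 807 and 47 bp outside.

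A second value of each peak, its −log10 q, divided the 6 genes in another way than the fold. At a given fold, −log10 q grows with the number of reads behind the peak. In replicate 1 it was 65.8 at AT2G16586, 24.6 at AT5G10340, 21.4 at AT3G23460, 18.4 at AT1G04680, 7.57 at AT3G27510 and 6.63 at NAC097. In replicate 2 it was 45.8 at AT2G16586, 9.11 at AT5G10340, 5.17 at AT3G23460, 60.4 at AT1G04680, 5.42 at AT3G27510 and 3.26 at NAC097. The strongest fold and the strongest q thus fell on different genes in replicate 1, and NAC097 had the weakest q in both lists. In the same order of genes, the ranks by −log10 q were 33, 54, 58, 65, 82 and 83 of 87 in replicate 1. They were 38, 64, 69, 36, 68 and 73 of 81 in replicate 2.

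Set beside pericentromeric and rRNA-side peaks of the same list with a fold within 20% of the gene's own, AT2G16586 lay among them. Its 65.8 in replicate 1 stood beside a median of 78.4 over 17 such peaks, and its 45.8 in replicate 2 beside 37.7 over 22. AT5G10340 was close to such peaks in replicate 1 (24.6 beside a median of 25.6 over 26 peaks) and below all 9 in replicate 2 (9.11 beside 20.5, lowest 11.0). The other 4 lay far lower at equal fold in replicate 1. AT1G04680 had 18.4 beside a median of 165 over 19 peaks, and AT3G23460 had 21.4 beside 174 over 14. AT3G27510 had 7.57 beside 57.4 over 18, and NAC097 had 6.63 beside 50.1 over 16. None of these peaks was as low as the gene it was set beside. In replicate 2, AT3G23460, AT3G27510 and NAC097 had 5.17, 5.42 and 3.26 beside medians of 64.7, 67.7 and 32.1, with 3 peaks lower than each. No pericentromeric or rRNA-side peak of replicate 2 had a fold near the 14.4 of AT1G04680. Low values at like fold were not particular to these genes, since other arm peaks had them too. In replicate 1 the peaks at AT5G46070, with folds of 6.09 and 7.13, had a −log10 q of 10.2 and 14.9. In replicate 2 the peak in AT5G37240 (fold 4.63) had 7.38, and a peak in AT5G65770 (fold 4.21) had 5.52. The comparison was chosen after the values were seen.

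**Figure D3:**
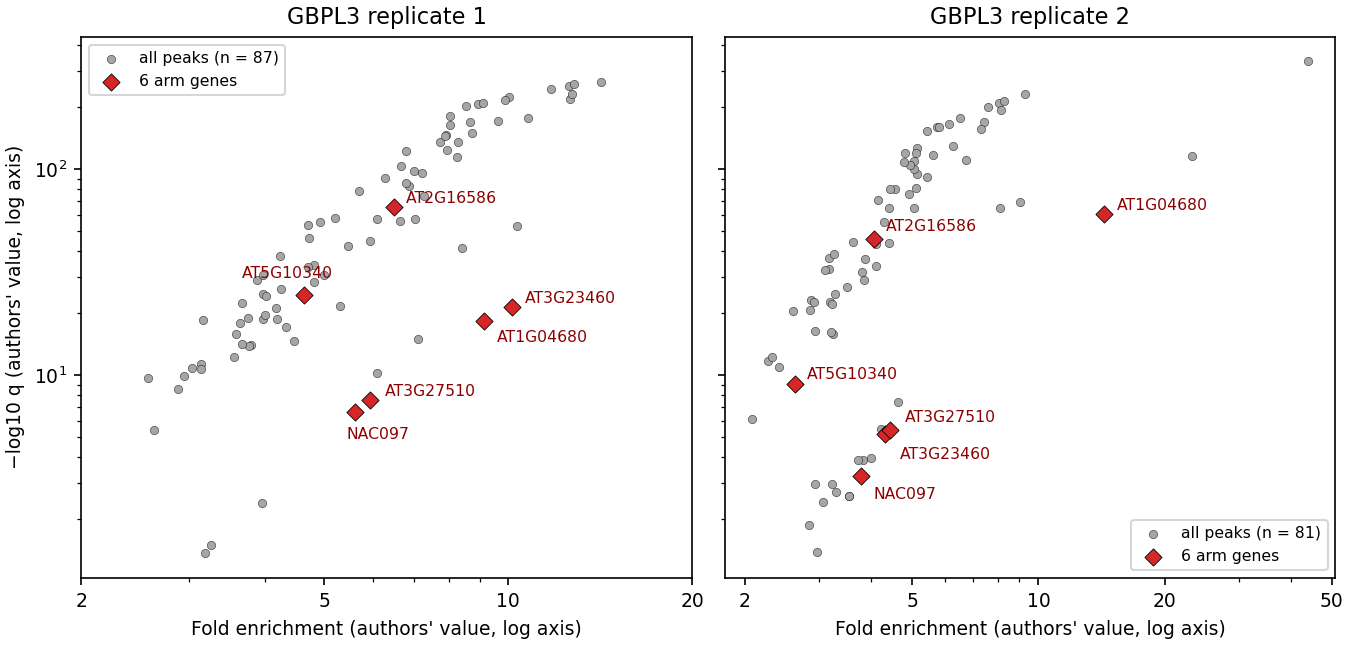
Fold enrichment (across) against −log10 q (up) of every nuclear peak in each GBPL3 list (authors' values, log axes, 1 point a peak), with the 6 arm genes as red diamonds. AT2G16586 (65.8 and 45.8) lies in the main band of the list in both replicates, while AT3G27510 and NAC097 (7.57 and 6.63 in replicate 1) lie well below it at like fold.

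H2B gave a readout that played no part in choosing the genes. None of the 6 genes had an H2B peak in its body or within 1 kb in replicate 1 (0 of 6) or in replicate 2 (0 of 6). Of all arm genes, 5.8% had such a peak in replicate 1 and 33.6% in replicate 2, and of the 24260 protein-coding ones 6.36% and 37.0%. With 6 genes and shares of this size, a lack of H2B peaks was not detectable. Within 2 kb, 0 of the 6 had a peak in replicate 1 and 2 had one in replicate 2 (AT3G23460 and AT5G10340), beside 8.24% and 43.7% of arm genes. None of the 6 regions overlapped an H2B peak. The H2B peaks covered 575 kb of the nuclear chromosomes in replicate 1 and 4547 kb in replicate 2. How often an arm stretch of like width meets an H2B peak was not counted, so the missing overlap is no result about the regions.

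The nearest H2B peak stood at different distances. From AT3G23460 it was 12304 bp away in replicate 1 and 1092 bp in replicate 2, where it lay in the adjoining gene AT3G23450 (fold 1.76). From AT5G10340 it was 22733 and 1683 bp away, in replicate 2 between HPA1 and AT5G10336 (fold 1.73). From AT1G04680 it was 40626 and 2413 bp away, and from AT3G27510 40316 and 2771 bp. NAC097 and AT2G16586 were far from H2B peaks in both lists, at 25526 and 16395 bp and at 28194 and 28210 bp. The median distance of a protein-coding arm gene was 25373 bp in replicate 1 and 2399 bp in replicate 2, and 4 of the 6 genes lay farther than this in each list.

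The neighbourhoods differed as well. The AT1G04680 region reached into a gap of 5469 bp before KAB1 (AT1G04690), which encodes a beta subunit of potassium channels and held 2 H2B replicate 2 peaks with a highest fold of 2.44. No other gene lay within 1 kb of this region. NAC097 also stood apart, 2519 bp from TIM8 (AT5G50810), a subunit of the machinery that imports proteins into mitochondria, and 2987 bp from AT5G50830.

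The remaining 4 genes had close neighbours, and through these the rule in its letter takes in 4 further genes, 10 in all. AT3G23470 lay 322 bp from the region in AT3G23460, the lncRNA gene AT2G06695 574 bp from that in AT2G16586, the lncRNA gene AT3G05265 16 bp from that in AT3G27510, and AT5G10336 995 bp from that in AT5G10340. None of the 4 was touched by a GBPL3 peak. Farther out, up to 5 kb, lay SCRL19 (AT3G27503), a relative of the SCR pollen proteins of self-incompatibility, 1444 bp from the AT3G27510 region. HPA1 (AT5G10330), a histidine synthesis enzyme, lay 2134 bp from the AT5G10340 region. AT2G16580 (SAUR8), of the small auxin-upregulated RNA family, lay 3907 bp from the AT2G16586 region. Of the 19 neighbours within 5 kb, 0 had an H2B replicate 1 peak in the body and 4 had an H2B replicate 2 peak: KAB1, AT3G23450, AT3G27520 (fold 1.56) and AT5G10350 (fold 1.73). Of all arm genes, 3.82% and 23.0% had one.

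**Figure D4:**
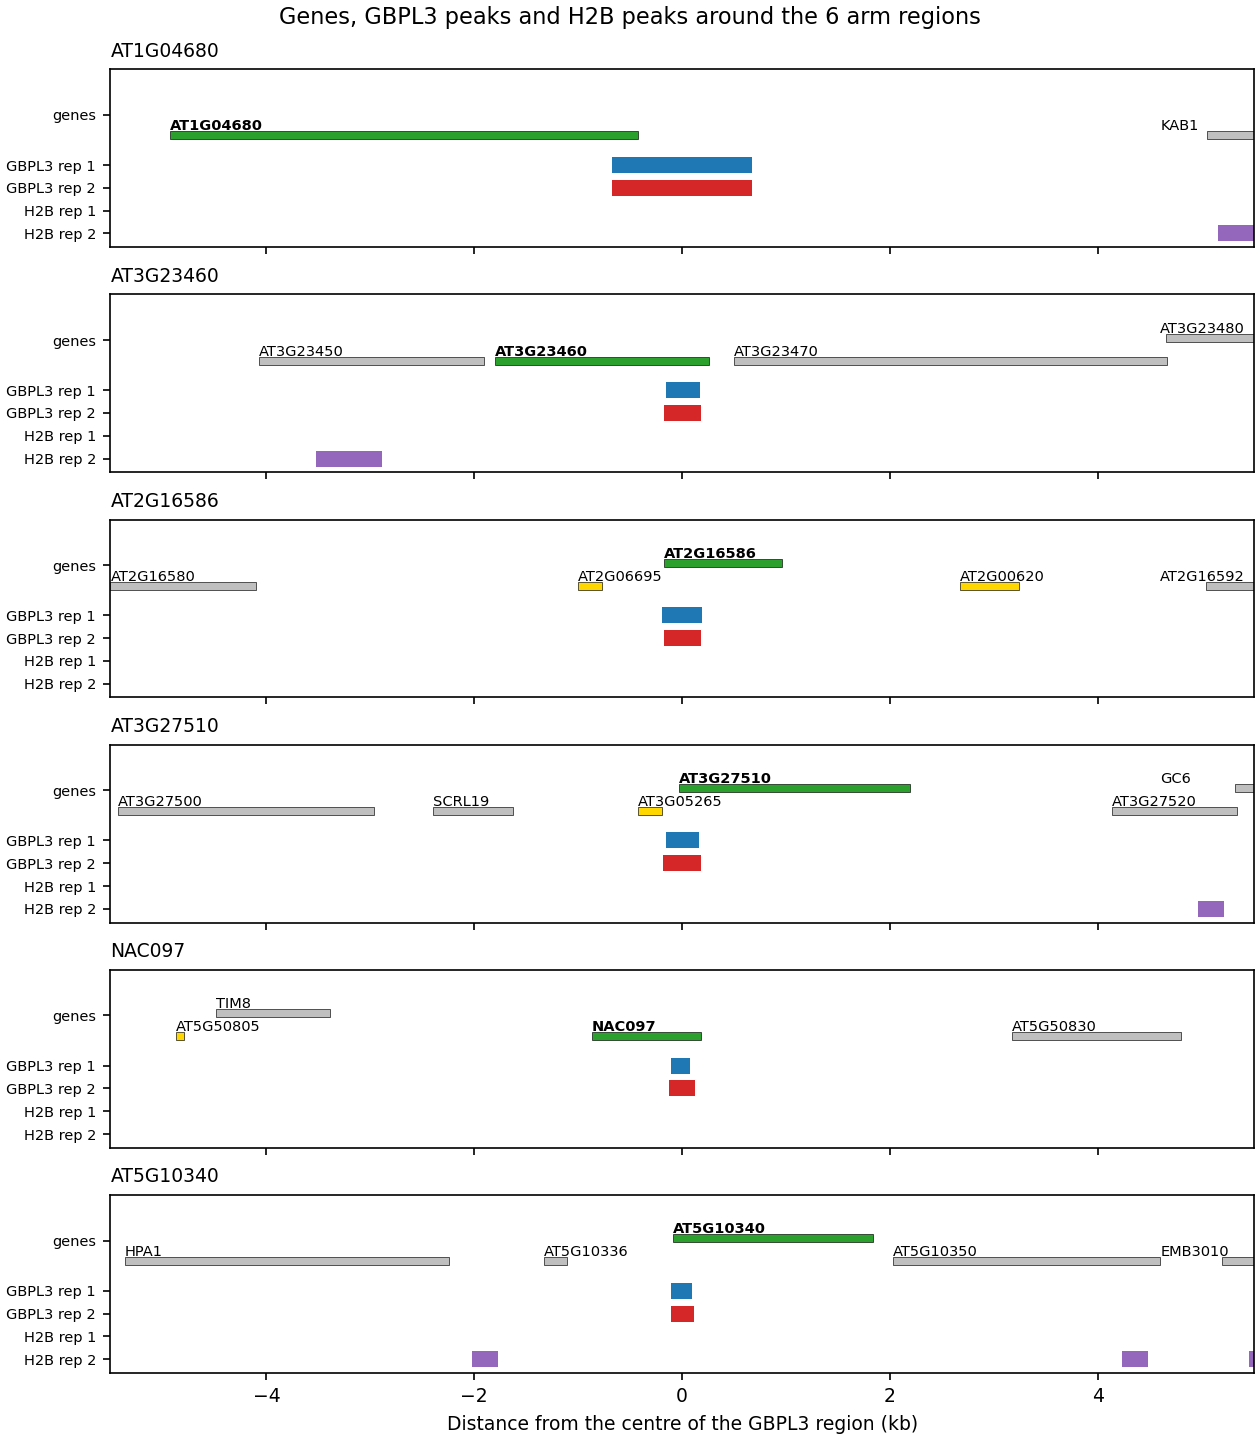
Genes and peaks within 5.5 kb of the centre of each GBPL3 region, in kb from that centre; the described gene is green, other protein-coding genes are grey and non-coding RNA genes yellow, with the peaks of the 4 lists below. The GBPL3 peaks of both replicates coincide at each gene, no H2B replicate 1 peak falls in these windows, and the H2B replicate 2 peaks lie in or beside neighbouring genes, none at NAC097 or AT2G16586.

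The 6 genes differed in length and spacing, with medians near those of arm genes. Their lengths ran from 1053 bp (NAC097) to 4507 bp (AT1G04680), with a median of 1991 bp beside 2111 bp over the protein-coding arm genes. The gap to the next gene on the side of the peak ran from 168 bp (AT3G27510) to 5469 bp (AT1G04680), with a median of 806 bp beside 771 bp at the ends of protein-coding arm genes.

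Distance from the centromeres set 4 of the genes well apart from the pericentromeres and left 2 near the border. AT1G04680 lay 10.8 Mb outside the border of 3 Mb, NAC097 5.98 Mb, AT5G10340 5.45 Mb and AT3G23460 2.29 Mb. AT2G16586 and AT3G27510 lay 0.591 and 0.512 Mb outside it. Inside the border, the pericentromeric regions farthest from a midpoint were on chromosome 4, 0.945 Mb away (3054346 to 3055387, folds of 7.02 and 5.12) and 0.939 Mb away (3060861 to 3061205, folds of 10.3 and 9.02). Apart from the rRNA genes, 0 regions lay between these and AT3G27510, 3.51 Mb from its midpoint.

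Just outside the rule stood 11 arm peaks of a single replicate. In replicate 1 there were 2, with folds of 3.19 in AT4G16820, a phospholipase gene, and 3.27 in LRP1 (AT5G12330), a gene of lateral root primordia, both below the 4.64 of the weakest of the 6 genes in that list. In replicate 2 there were 9. Of these, 3 lay where the lamin-like gene CRWN4 (AT5G65770) and AT5G65780 (ATBCAT-5) overlap in the gene table, with folds of 4.21, 3.72 and 23.3, the last above the 14.4 of AT1G04680. The other 6 had folds of 2.83 to 4.63, which overlapped those of the 6 genes, and −log10 q of 1.39 to 7.38, beside 3.26 to 60.4. They lay in GRP7 (AT2G21660, fold 2.83), a glycine-rich RNA-binding protein gene of the circadian system, in MBP2 (AT1G52030, 3.07), a myrosinase-binding protein gene of glucosinolate defence, in MBR1 (AT2G15530, 2.98), which encodes a RING-type protein that binds the Mediator subunit MED25, in AT4G01985 (2.93) and AT5G37240 (4.63), and 804 bp from AT4G22490 (3.55). An H2B peak of either replicate overlapped 5 of the 11 single-replicate peaks. These were the peaks in AT4G16820, LRP1, GRP7 and AT4G01985 and 1 of those in AT5G65770. All 5 met a peak of the longer replicate 2 list, and 1 also met a peak of replicate 1. Of all arm genes, 23.9% had an H2B peak of either replicate in the body. That share counts whole genes, the protein-coding ones with a median length of 2111 bp, while the 11 peaks were 208 to 1337 bp wide. The shares are thus of unlike units, and the share for arm stretches as wide as these peaks was not counted. A difference from the regions of the 6 genes was not tested.

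Of the 100 NAC genes that the table names by number, NAC097 was the 1 with a GBPL3 peak within 1 kb in replicate 1 and in replicate 2. NAC097 was chosen by these very peaks, so this count follows from the choice and is no result about the NAC family. For scale only, an arm gene had such a peak in 0.0465% of cases in replicate 1 and 0.073% in replicate 2. H2B peaks lay within 1 kb of 3 NAC genes in replicate 1 and 31 in replicate 2, a share of 3.0% and 31.0% beside the 5.8% and 33.6% of arm genes. Both H2B lists had a peak at NAC003 (folds of 2.49 and 2.18) and at RD26 (AT4G27410, 1.91 and 1.69), a factor of the drought and abscisic acid response. ATAF2 (AT5G08790) had one in replicate 1 alone, with a fold of 2.00. These 3 are named after their values were seen. NAC097 had none in either list.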

How the data were processed

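Each pulldown sample has its own peak list, called per sample. The tools named in the submitters' processing notes are MACS2 2.1.0 and BWA 0.7.12, with TAIR10 as the genome build; their settings, and any input control, are not given in the sources read. From the deposited columns, the authors' fold enrichment (a linear ratio), −log10 p, −log10 q and score (10 times the −log10 q) were read, and the summit offset placed summits; of these the fold, −log10 q and summits are reported.

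Lines sharing both borders were merged into a single peak, which kept the highest fold. Regions were runs of peaks overlapping by at least 1 bp with a peak of each replicate. Midpoints of centromeres were approximate (15.1, 3.6, 13.7, 4.0 and 11.7 Mb on chromosomes 1 to 5). Genes came from a RefSeq table of TAIR10.1, in which all 6 were found, and from which no coordinates are printed. The builds are named differently: 91.2 to 93.6% of H2B replicate 2 summits per chromosome lay in protein-coding genes, and 58.4 to 69.1% after shifts of 5 to 50 kb. Organelle peaks were left out. Scripts ran in Python 3.11.15 with pandas 2.3.3, and the overlap functions were tested on simulated data.

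The genes, lists and comparisons were chosen with earlier results of these data known. Named are the 6 genes, genes within 5 kb, arm genes with single-replicate peaks and NAC relatives with a GBPL3 peak; 3 NAC genes with H2B replicate 1 peaks were added after their values were seen, and no other family list was used. No test was made.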

Additional observations from a re-analysis of the deposited data

How the results depend on the processing

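All 6 genes were still found with a reciprocal overlap of 50%. They were also found by gene body alone, but the choice of the gene holding the summit largely fixed this. Within 2 kb, with a pericentromere half-width of 2 Mb or from either GBPL3 list alone they are found by construction, which says nothing of stability. When −log10 q had to reach 5 in each list, 5 remained, without NAC097, and with a half-width of 5 Mb 4 remained, without AT2G16586 and AT3G27510. Counted with close neighbours, the 10 genes became 6 by gene body alone and 6 with the half-width of 5 Mb. Leaving out 1 GBPL3 replicate left 8 to 15 arm regions in place of 6 and 12 to 20 genes in place of 10, the higher counts from replicate 2 alone, which holds the 3 peaks in AT5G65770 and AT5G65780. Within 2 kb, 2 of the 6 genes had an H2B peak (AT3G23460 and AT5G10340, both in replicate 2) in place of 0, a list with such a peak at 43.7% of arm genes. Of the mean folds, those from the line of highest q were identical at all 6 genes. With 2 replicates, the geometric mean and the value of either replicate alone must lie within the SD, and division by the list median changes the scale, so none of these shows stability. No paired analysis was possible because the results come from no test. Read depth is unknown, so how far the list lengths depend on it was not tested.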
